A study of Drosophila melanogaster with 4 samples.

Results

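The 10 genes described here form the core of the Drosophila JAK-STAT pathway: the ligand genes upd1, upd2 and upd3, the receptor genes dome and et, the kinase gene hop, the transcription factor gene Stat92E, and the negative regulators Socs36E, Su(var)2-10 and Ptp61F. They were chosen by symbol, for their known place in the pathway, and all 10 were found among the 17494 genes of the count table. RNA-seq was performed on myoblasts associated with the wing disc, the precursors of the adult flight muscles, taken at 0 hours after puparium formation (APF). Each sample pooled 30 to 35 discs from animals reared at 29°C, and about 50000 cells were sorted on viability, size and GFP. The control group (replicates 2 and 3) carried Mef2-Gal4, UAS-GFPnls and a UAS hairpin against yellow (y), and the Antp RNAi group (replicates 1 and 2) carried the same driver and GFP with a UAS hairpin against the Hox gene Antennapedia (Antp), which the study names as its line #2. The study describes Mef2-Gal4 as a muscle driver that is active in myoblasts of the wing disc from the third larval instar. It states that Mef2 is not expressed in the embryonic precursors of adult muscle. As the driver is a general one for muscle, neither the hairpins nor GFP were restricted to the myoblasts of the wing disc. One label field names the GFP as GFP::Gma, and one calls the control a wild type cross where the genotype field names the y hairpin, and the methods of the study speak of technical replication of 1 biological sample where the labels call the libraries independent. The p-values therefore measure the spread between these libraries, which may be technical.

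In this pathway a secreted Unpaired ligand binds the receptor Dome, which brings the kinase Hop to the membrane. Hop phosphorylates Stat92E, which then enters the nucleus and activates genes, among them Socs36E, whose product in turn dampens the receptor complex. In flies the pathway is known for embryonic segmentation, blood cell formation, stem cell niches, the immune response and the growth of the hinge of the wing disc. Activation is a matter of phosphorylation, so the RNA levels of ligands, receptors, kinase and STAT tell which of them the cells transcribe and not how active the pathway is.

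Library totals ranged from 42110502 to 53957914 counts. Antp, the target of the hairpin, had 10214 and 9356 control counts against 5723 and 6629 upon Antp RNAi, and its difference did not pass the threshold (log2 fold change -0.38 ± 0.11 SE, edgeR adjusted p = 0.145). The gene y, the target of the control hairpin, was at 0 counts in the control and at 382 and 365 counts in Antp RNAi. Near y on the X chromosome, l(1)sc had 0 and 0 control counts against 39 and 28 in Antp RNAi. CG32816 had 23 and 43 against 280 and 418, whereas the groups overlapped for ac and sc. Whether the hairpin or the genetic background set the value of y was not tested. Myoblast markers, a list of 10, summed to between 9344 and 11176 CPM (counts divided by TMM-scaled library sizes) in the 4 libraries. Him and twi gave the largest parts, with twi at 2368 ± 250 CPM in the control and 2605 ± 222 in Antp RNAi (SD, n = 2 each). The lowest were kirre (18.4 CPM in the control and 20.7 in Antp RNAi) and sns (22.0 and 40.6 CPM). Single markers of that list of 10 moved in opposite directions, since ct was lower in Antp RNAi (log2 fold change -0.86, edgeR adjusted p = 0.00748) and sns higher (0.88, edgeR adjusted p = 0.0127). Mef2 and vg were also lower (log2 fold change -0.33 and -0.32, edgeR adjusted p = 0.176 and 0.199). The groups did not overlap for 8 of the 10, 5 higher and 3 lower in Antp RNAi, against 40.6% of all genes tested. In edgeR 6 of the 10 had an unadjusted p under 0.05, against 11.5% of all genes. Of 9 genes listed for the disc epithelium, pnr, eyg and Ubx had at most 17 counts in a library, whereas ap and shg were well expressed. The study mentions Ubx in the haltere disc, so its low count does not bear on epithelium of the wing disc. Between these lay dpp with 30 to 74 counts and wg with 11 to 174. Also of that list, nub had 72 and 240 counts in the control against 218 and 330 in Antp RNAi. The hemocyte list of 8 genes summed to 219 to 232 CPM in the control and 61.7 to 70.2 in Antp RNAi. This gap came mostly from Pxn (160 ± 13.2 against 6.34 ± 0.907 CPM, SD, n = 2 each), and NimC1, which defines hemocytes, went the same way from 44 and 45 counts to 1 and 1 (edgeR adjusted p = 0.00799). The other defining markers Hml, He and eater had at most 10 counts in a library, and srp had 41 and 43 against 25 and 10. In contrast, crq of the same list was nearly equal in the groups (41.7 ± 3.26 against 42.7 ± 0.396 CPM, edgeR adjusted p = 0.957). The last of the list, ush, had 21.8 ± 0.812 against 16.4 ± 4.54 CPM (edgeR adjusted p = 0.477). Differentiated muscle markers, a list of 5, summed to 469 to 490 CPM in the control and 748 to 751 in Antp RNAi. This rise came mostly from Act57B (208 ± 23.2 against 438 ± 64.6 CPM, SD, n = 2 each). The groups overlapped for sls (267 ± 37.8 against 307 ± 65.8 CPM), Mhc and Act88F (log2 fold change -0.10 each). Tm2 had at most 8 counts in a library. For 7 fat body markers the sum was at most 1.88 CPM in the control and 27.9 in Antp RNAi. The Antp RNAi sum was mostly apolpp (22 and 42 counts against 1121 and 564, edgeR adjusted p = 8.09e-04). Fbp1 and Lsp2 had 0 counts in every library, and Fbp2, Lsp1alpha and Lsp1beta at most 13. Adh had 63 and 30 counts in the control against 51 and 42. Whether other cell types had a part in the JAK-STAT values was not tested. Whole sorted populations were sequenced, so fewer cells that transcribe a gene and less RNA per cell cannot be told apart in any value given here.

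The components that receive and relay the signal, and those that restrain it, were well transcribed apart from et, whereas the ligands were barely detected. None differed between the groups at an adjusted p of 0.001, the threshold that the study used with DESeq2. The quasi-likelihood test of edgeR called 0 of the 8 members that passed the filter on low counts, and 0.463% of the 10360 genes that passed. At this threshold edgeR was the stricter tool, with 48 genes called over the whole table against 239 for DESeq2. DESeq2 also called 0 of the 8 members. Levels were compared between genes as CPM per kb of exon. Stat92E was highest, with 92.9 and 96.5 CPM per kb in control replicates 2 and 3 and 109 and 108 in Antp RNAi replicates 1 and 2. It was followed over all libraries by dome at 71.8, Socs36E at 70.6, Su(var)2-10 at 65.2, Ptp61F at 39.0 and hop at 38.8 (means of 4 libraries). These 6 genes stood above 76.2% to 92.5% of the 10360 genes tested. A wide gap separated them from et at 1.24 CPM per kb, and a further one separated et from upd2 at 0.185, upd3 at 0.0540 and upd1 at 0.0135.

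**Figure D1:**
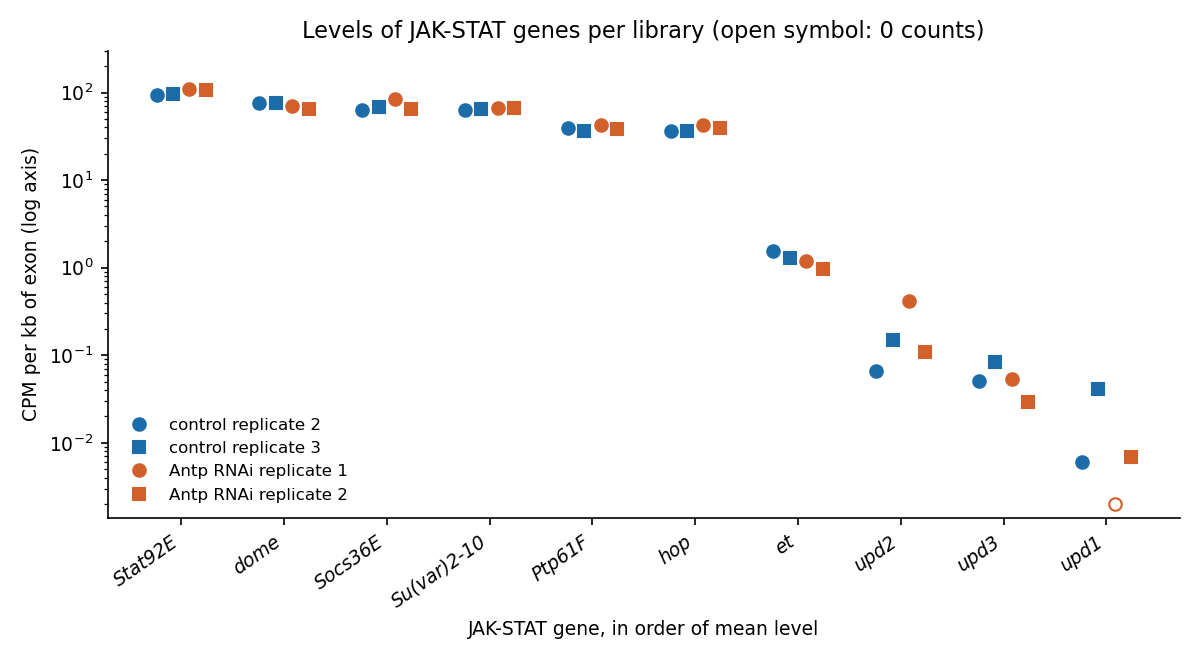
Levels of the 10 JAK-STAT genes in CPM per kb of exon on a log axis, 1 symbol per library, blue for control and orange for Antp RNAi; the open symbol marks upd1 with 0 counts in Antp RNAi replicate 1. Stat92E, dome, Socs36E, Su(var)2-10, Ptp61F and hop lie between 36.3 and 109 CPM per kb in every library, et lies near 1 and each ligand below 0.417.

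Neighbours in this order were not all distinct. The ranges of the 4 libraries did not overlap between Stat92E and dome, between Su(var)2-10 and Ptp61F, between hop and et or between et and upd2. They did overlap for dome with Socs36E, Socs36E with Su(var)2-10, Ptp61F with hop, upd2 with upd3, and upd3 with upd1. Gene models also bear on the order, since the level per kb uses every exonic base of a gene which lowers the value of genes with many alternative exons. When the longest annotated transcript was used instead, an alternative chosen after the data were seen, Stat92E stayed first and Su(var)2-10 moved from 63.7 to 109 CPM per kb in the control, from the fourth place to the second.

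The ligands were considered first. The 3 Unpaired proteins are secreted cytokines. Of these, upd1 is known for its roles in the embryo and in stem cell niches, upd2 for signalling from the fat body, and upd3 for its induction in hemocytes and gut upon stress. The gene upd1 (FBgn0004956, chromosome X, 18305354 to 18309291, minus strand) was barely detected, with 1 and 7 counts for control replicates 2 and 3, and 0 and 1 for Antp RNAi replicates 1 and 2. The library with 0 counts could still hold up to 0.0708 CPM. For upd3 (FBgn0053542, chromosome X, 18277233 to 18284596, plus strand) the counts were 6, 10, 5 and 3 in the same order. Both fell under the filter on low counts and were not tested. Their groups overlapped.

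The gene upd2 (FBgn0030904, chromosome X, 18240654 to 18243284, minus strand) gave 7 and 16 control counts, against 35 and 10 upon Antp RNAi. The highest library, Antp RNAi replicate 1, had an exact Poisson 95% interval of 0.575 to 1.15 CPM, above that of control replicate 3 (0.168 to 0.477 CPM) and those of the other libraries. Such intervals cover counting error only, since reads amplified without molecular identifiers are not independent molecules. A log2 fold change of 1.27 ± 0.76 (SE) was fitted to upd2, its 95% interval running from -0.46 to 3.01 (edgeR adjusted p = 0.637). This rested on the 1 high library, since the value was 0.04 when Antp RNAi replicate 1 was left out, 1.96 when replicate 2 was, and 1.97 when control replicate 3 was. All ligands together summed to 14 and 33 counts for the control replicates and to 40 and 14 for Antp RNAi. Per kb, dome exceeded the summed ligands by 608 and 282 times in the control libraries, and by 148 and 449 times in Antp RNAi.

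The 3 ligand genes lie together on the X chromosome within a stretch where little was transcribed. The first 33.9 kb separate upd2 from upd3 and the next 20.8 kb upd3 from upd1. The 4 annotated genes that lie between them, all noncoding but CG15059, had at most 4 counts in a library. Him, which encodes an inhibitor of Mef2 activity and marks undifferentiated myoblasts, ends 29.9 kb from upd2 and had 3757 CPM per kb. Him had 3564 ± 697 CPM in the control and 3349 ± 256 in Antp RNAi (SD, n = 2 each), or -0.09 on the log2 scale (edgeR adjusted p = 0.898).

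**Figure D2:**
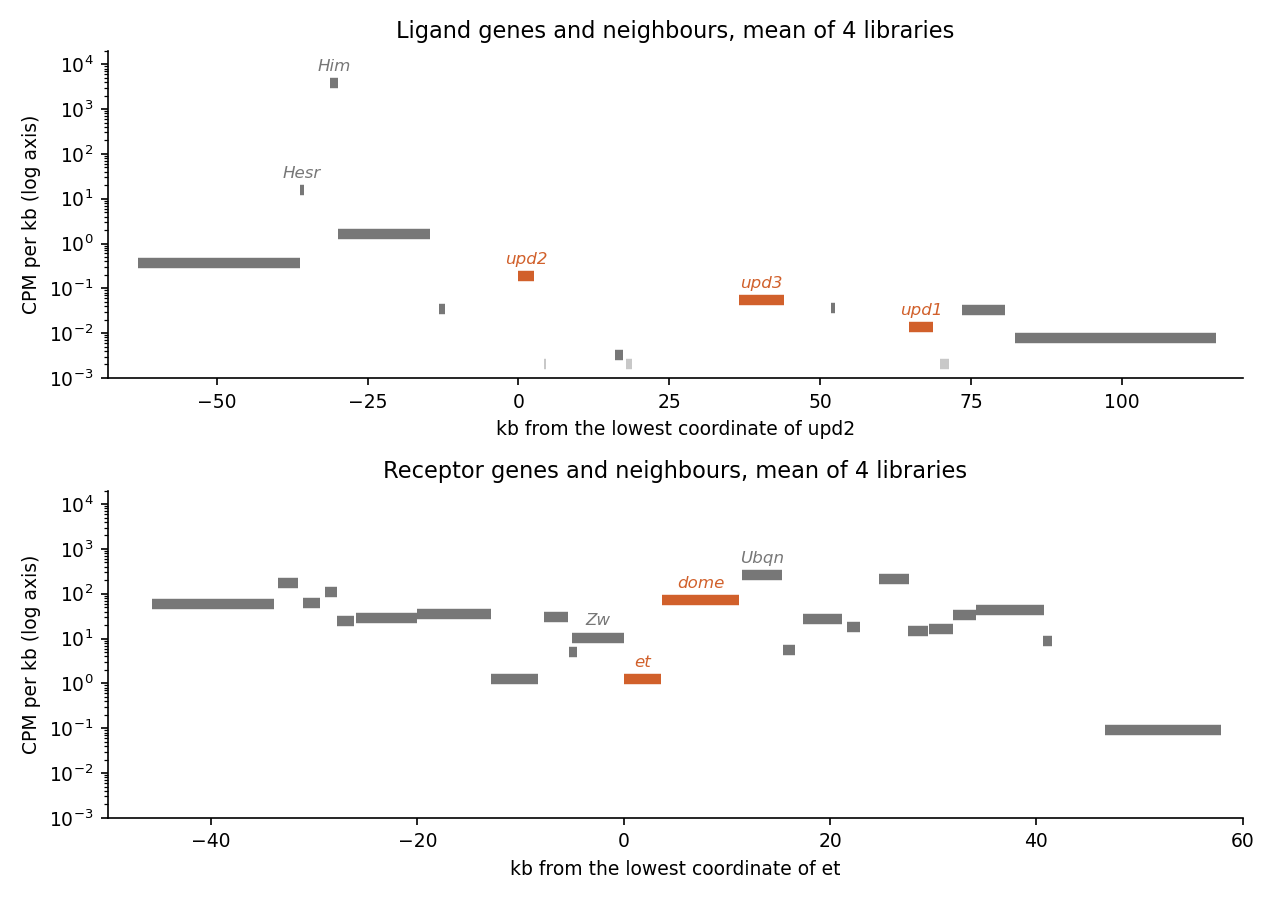
Genes within 40 kb of the ligand genes (top) and of the receptor genes (bottom), drawn as bars over their length in kb from the lowest coordinate of upd2 or et, against the mean level of 4 libraries in CPM per kb on a log axis; JAK-STAT genes are orange, other genes grey, and pale bars at the lower edge have 0 counts. The ligands lie at 0.185 CPM per kb or below, and dome (71.8) and et (1.24) lie side by side among transcribed genes.

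The receptors differed strongly in level. Dome is the signalling receptor of the pathway, related to the cytokine receptors of vertebrates, and the product of et (eye transformer) is a related receptor known to dampen signalling. Their genes are neighbours on the same strand of the X chromosome, with 169 bases between et (FBgn0031055, 19672312 to 19675891) and dome (FBgn0043903, 19676061 to 19683518). The level of dome was 48.6 and 59.3 times that of et per kb in control replicates 2 and 3, and 58.8 and 68.6 times in Antp RNAi replicates 1 and 2. No exon of dome is shared with another gene, and 42 bases of et, or 1.74% of its exonic length, are shared with Zw on the opposite strand.

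For dome, 19444 and 20392 control reads were counted against 14387 and 14707 upon Antp RNAi, that is 366 and 374 CPM against 339 and 320. The Antp RNAi libraries were thus the 2 lowest, with a mean 10.9% under that of the control. This corresponded to -0.17 ± 0.10 (SE) as log2 fold change, with a 95% interval from -0.39 to 0.06 (edgeR adjusted p = 0.630). Far fewer reads fell on et, 198 and 170 for the control against 121 and 106 upon Antp RNAi. Its groups did not overlap either, at 3.42 ± 0.428 CPM against 2.58 ± 0.388 (SD, n = 2 each). At this depth the log2 fold change of et, -0.41 ± 0.27 (SE), had an interval from -1.03 to 0.21 (edgeR adjusted p = 0.683), and its value shrank to -0.24 once Antp RNAi replicate 2 was left out.

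The kinase and the STAT, of which the fly has 1 each, each had higher levels in both Antp RNAi libraries than in both controls, by differences that did not pass the test. Stat92E (FBgn0016917, chromosome 3R, 20535323 to 20552311, minus strand) had 484 and 503 CPM in the control, against 566 and 563 in Antp RNAi. The groups did not overlap, and the replicates of Stat92E lay close together, within 1.04 times of each other in the control and 1.01 times in Antp RNAi. On the log2 scale Stat92E differed by 0.19 ± 0.10 (SE), with a 95% interval of -0.03 to 0.41. Its p was the smallest among the members tested (edgeR, unadjusted p = 0.0760 and adjusted p = 0.523). The annotation lists 11 transcripts of Stat92E, which a count per gene does not separate.

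For hop (FBgn0004864, chromosome X, 11360930 to 11368098, minus strand), the only JAK kinase gene of the fly, the levels were 184 and 186 CPM in the control, against 218 and 197 in Antp RNAi. Here too the groups did not overlap, and Antp RNAi replicate 1 was the highest. On the log2 scale hop differed by 0.17 ± 0.10 (SE), with an interval of -0.07 to 0.40 (edgeR adjusted p = 0.656). The value was 0.25 when Antp RNAi replicate 2 was left out and 0.10 when replicate 1 was. The ratio of Stat92E to hop per kb lay between 2.53 and 2.77 in the 4 libraries, whereas the ratio of Stat92E to dome was 1.24 and 1.26 in the control libraries, against 1.56 and 1.65 in Antp RNAi.

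The negative regulators, which act at different steps, were all transcribed. Socs36E belongs to the SOCS family, which acts on the receptor complex. Socs36E is itself activated by Stat92E in many fly tissues and serves there as a readout of the pathway. Socs36E (FBgn0041184, chromosome 2L, 18138675 to 18152417, minus strand) had 221 and 243 CPM in the control, against 299 and 227 in Antp RNAi. Antp RNAi replicate 1 alone was high, replicate 2 lay between the control libraries, and the gap between the Antp RNAi replicates (1.32 times) exceeded that between the group means (1.14 times). For Socs36E the fitted log2 fold change was 0.18 ± 0.14 (SE), its interval -0.14 to 0.51 (edgeR adjusted p = 0.754). Leaving out Antp RNAi replicate 1 turned it to -0.023, whereas leaving out replicate 2 brought it to 0.39, so the sign hung on replicate 1.

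Su(var)2-10, the fly PIAS protein, is a SUMO ligase that represses Stat92E and also acts in chromatin. The gene Su(var)2-10 (FBgn0003612, chromosome 2R, 9116122 to 9122000, plus strand) varied least over the 4 libraries, with 318 and 324 CPM in the control, against 334 and 337 in Antp RNAi. The groups were 4.51% apart and did not overlap. This amounted to 0.06 ± 0.10 (SE) on the log2 scale, with an interval of -0.16 to 0.28 (edgeR adjusted p = 0.898).

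Ptp61F is a tyrosine phosphatase, related to mammalian PTP1B, that counteracts the phosphorylation of Hop and Stat92E. The gene Ptp61F (FBgn0267487, chromosome 3L, 1342493 to 1475257, minus strand) had 236 and 224 CPM in the control, against 256 and 230 in Antp RNAi, so the groups overlapped. On the log2 scale Ptp61F differed by 0.08 ± 0.11 (SE), with an interval of -0.16 to 0.32 (edgeR adjusted p = 0.877).

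**Figure D3:**
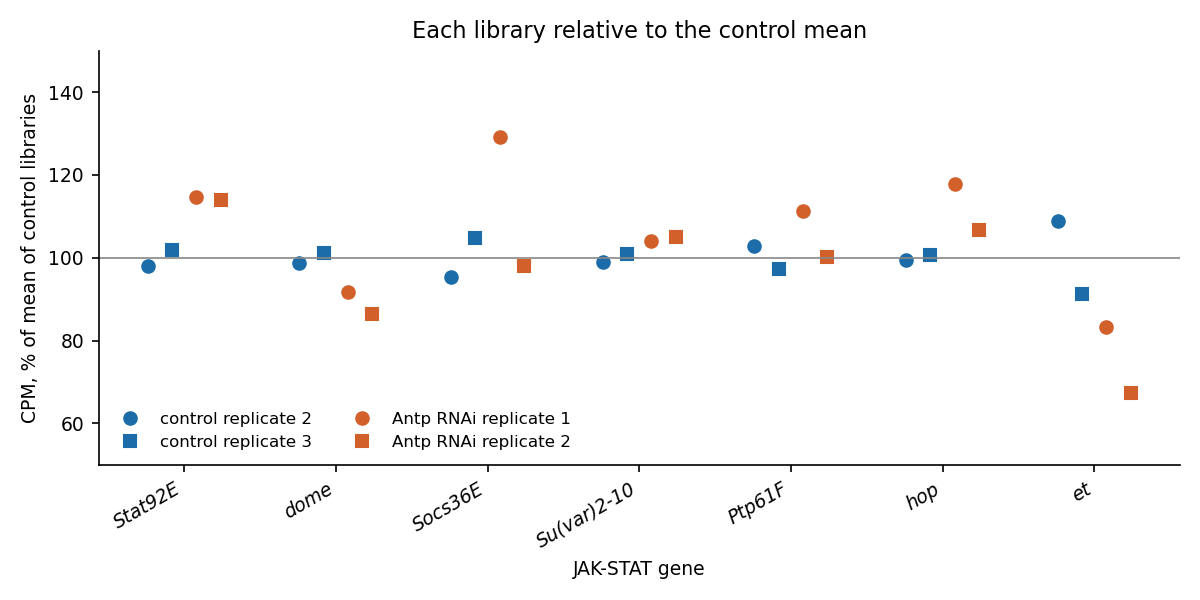
CPM of each library as a percentage of the mean of the control libraries, for the 7 tested genes other than upd2, 1 symbol per library, blue for control and orange for Antp RNAi. Both Antp RNAi libraries lie above both controls for Stat92E, Su(var)2-10 and hop and below them for dome and et, while Socs36E and Ptp61F overlap between the groups.

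Over the pathway as a whole, 0 of the 8 genes tested passed an adjusted p of 0.05 in edgeR either, where 2.58% of all genes did, and 0 of 8 had an unadjusted p under 0.05, against 11.5% of all genes. DESeq2, which called 4.69% of all genes at an adjusted p under 0.05, and limma-voom also called 0 of the 8, with smallest adjusted p-values of 0.515 and 0.498. The groups did not overlap for 5 of the 8 tested members, 2 lower and 3 higher in Antp RNAi, compared with 40.6% of all genes tested (22.1% lower and 18.6% higher). The median log2 fold change of the 8 genes was 0.12, against -0.01 over all genes tested, and the median size was 0.18 against 0.14. For the 6 abundant members the intervals left room for changes of at most 1.42 times upward and 0.762 times downward, and those of et (0.491 to 1.16 times) and upd2 (0.726 to 8.04 times) were wider. No exact permutation test was run on single genes, because 2 libraries against 2 cannot give a p below 0.333.

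The members on the X chromosome, 6 of the 10, did not share a direction, as dome and et were lower and hop higher in Antp RNAi. The median log2 fold change was 0.01 for 1765 X-linked genes tested and -0.01 for 8592 autosomal ones. The RNA of roX1, a noncoding component of the male dosage compensation complex, was 504 ± 18.3 CPM in the control and 579 ± 2.70 in Antp RNAi (SD, n = 2 each). This difference did not pass the threshold (edgeR adjusted p = 0.496). Among the other sex and dosage genes listed, the log2 fold change was 0.02 for roX2, -0.03 for Sxl, -0.06 for tra and 0.06 for dsx. It was 0.35 for msl-2 (edgeR adjusted p = 0.310).

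A second list held 14 other genes that act on the pathway, among them SOCS relatives, endocytic adaptors, SUMO enzymes and chromatin factors. All 14 were tested, and edgeR called 0 in either direction at an adjusted p under 0.05, against 2.58% of all genes. DESeq2, which called 4.69% of all genes, and limma-voom also called 0. The groups did not overlap for 4 of the 14, all higher in Antp RNAi, against 40.6% of all genes (18.6% higher). In edgeR 1 of the 14 had an unadjusted p under 0.05, against 11.5% of all genes. This was ken, a BCL6-like repressor that blocks a subset of Stat92E targets. The gene ken had 115.45 and 104 CPM in the control, against 148 and 123 in Antp RNAi, so that the groups did not overlap and Antp RNAi replicate 1 was highest. On the log2 scale ken differed by 0.31 ± 0.12 (SE), with an interval of 0.02 to 0.59 (edgeR adjusted p = 0.371). The value was 0.45 when Antp RNAi replicate 2 was left out and 0.17 when replicate 1 was. The median log2 fold change of the 14 genes was 0.01.

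The remaining SOCS genes were transcribed at lower levels than Socs36E. Socs44A had 44.9 ± 1.25 CPM in the control and 47.8 ± 6.17 in Antp RNAi (SD, n = 2 each), or 0.09 on the log2 scale (edgeR adjusted p = 0.888). Socs16D had 79.8 ± 5.79 and 68.5 ± 10.9 CPM (SD, n = 2 each), or -0.22 on the log2 scale (edgeR adjusted p = 0.652). The log2 value of Socs16D became -0.39 when Antp RNAi replicate 1 was left out and -0.048 when replicate 2 was. Stam, an adaptor of receptor endocytosis, had 74.7 ± 0.407 and 81.9 ± 2.66 CPM (SD, n = 2 each), or 0.13 on the log2 scale (edgeR adjusted p = 0.755). The most abundant of the list per kb was smt3, the fly SUMO gene, at 823 CPM per kb.

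The third list held 21 genes described as targets of the pathway in other fly tissues. Of these, 16 were tested, and slbo, eve, Tep1, TotC and TotX had at most 8 counts in a library. In edgeR none of the 16 passed an adjusted p of 0.05, where 1.36% of all genes were called as higher and 1.22% as lower, and limma-voom gave 0 as well. There were 3 of 16 genes with an unadjusted p under 0.05, against 11.5% of all genes. DESeq2 called the same 3 at an adjusted p under 0.05, apt and zfh1 as higher and fj as lower, where it called 2.61% of all genes as higher and 2.08% as lower. The groups did not overlap for 7 of the 16, 6 higher and 1 lower in Antp RNAi, and the median log2 fold change was 0.33. Over all genes tested the corresponding values were 18.6% higher, 22.1% lower and -0.01. The median of the targets was 0.24 over the 9 that passed a filter on a mean of at least 100 counts. The list does not record whether the pathway raises or lowers each target, so a shared direction says nothing of its activity.

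The gene apt, which encodes a transcription factor that limits JAK-STAT signalling in ovarian follicle cells, had 81.9 and 75.3 CPM in the control, against 126 and 105 in Antp RNAi. This was a log2 difference of 0.56 ± 0.12 (SE), with adjusted p = 0.0639 in edgeR and 0.00187 in DESeq2. The gene fj, which encodes a Golgi kinase of the Fat and Dachsous pathway, had 50.6 and 43.1 CPM in the control, against 33.3 and 25.3 in Antp RNAi. The log2 difference of fj was -0.68 ± 0.16 (SE), with adjusted p = 0.0751 in edgeR and 0.00430 in DESeq2. Both genes thus separated the groups without passing 0.001 with either tool. In fits of 3 libraries, the log2 difference of fj was -0.89 without Antp RNAi replicate 1 and -0.47 without replicate 2. That of apt was 0.42 and 0.70 in the same fits.

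The gene zfh1, a repressor that keeps somatic stem cells and adult muscle precursors undifferentiated, was the most abundant target by CPM and also stands among the myoblast markers. It had 1414 and 1338 CPM in the control, against 2148 and 1637 in Antp RNAi, so the groups did not overlap and Antp RNAi replicate 1 was the highest. On the log2 scale zfh1 differed by 0.46 ± 0.13 (SE), with adjusted p = 0.160 in edgeR and 0.0195 in DESeq2. Leaving out Antp RNAi replicate 2 gave zfh1 a difference of 0.66, and leaving out replicate 1 gave 0.26. Diap1 (th), an inhibitor of apoptosis, had 764 ± 69.7 CPM in the control and 852 ± 98.8 in Antp RNAi (SD, n = 2 each), or 0.16 on the log2 scale (edgeR adjusted p = 0.748).

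The targets chinmo, slbo and wg were scarce in these cells. The gene chinmo, a temporal identity factor and a target in the testis, had 5.75 ± 2.19 CPM in the control and 5.21 ± 0.778 in Antp RNAi (SD, n = 2 each), and its groups overlapped. The gene slbo, a target in the migrating border cells of the ovary, was at 0 counts in the whole control group, and at 8 and 1 counts for Antp RNAi. The gene wg, also listed as a marker of the disc epithelium, varied widely within groups, with 11 and 84 counts in the control, against 39 and 174 in Antp RNAi. Its log2 fold change of 1.43 became 3.50 when control replicate 3 was left out and 0.088 when Antp RNAi replicate 2 was.

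**Figure D4:**
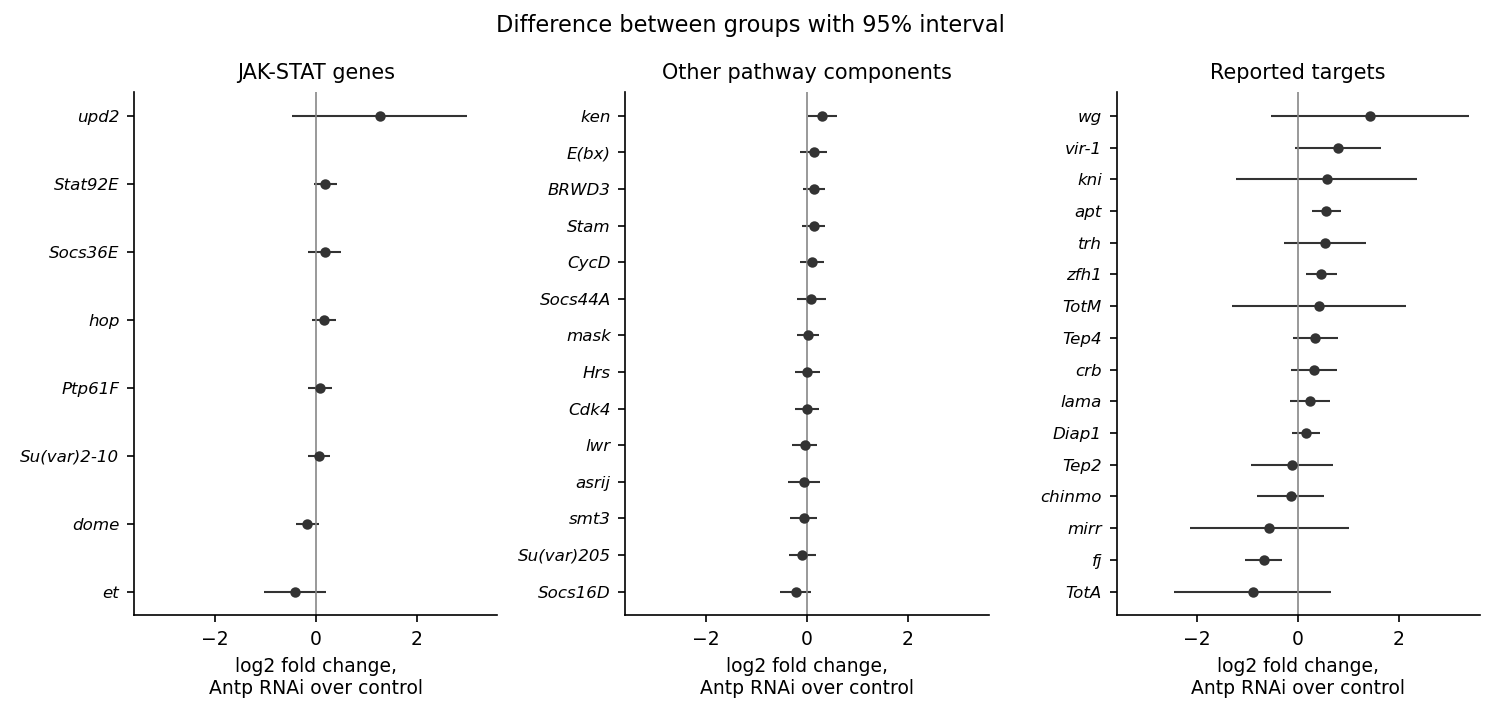
Difference of Antp RNAi from control as log2 fold change, with the 95% interval of edgeR's quasi-likelihood fit, for the 8 JAK-STAT genes tested, 14 other pathway components and 16 reported targets; the vertical line marks 0. All 8 intervals of the JAK-STAT genes include 0, and those of ken, apt, zfh1 and fj do not, although none of these 4 passed an adjusted p of 0.05 over all genes.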

How the data were processed

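RNA was measured in 4 libraries of sorted myoblasts, 2 per group, made from 2 ng of total RNA without molecular identifiers. The authors deposited whole-number counts per gene, without normalization, made on dm6 with featureCounts of Subread per the labels; its version, strand setting and treatment of overlapping genes are not given in the sources used here. Exonic lengths and coordinates come from the same table. A second deposited table holds the authors' DESeq2 1.34 comparison, of which only the gene symbols were used.

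Counts were filtered with filterByExpr (minimum count 10), scaled by TMM and fitted in edgeR 4.0.16 (quasi-likelihood test), with Benjamini-Hochberg adjustment over 10360 genes and a threshold of 0.001. The standard error is the size of the log2 fold change divided by the square root of F. Where a library had 0 counts, 3 counts were taken as its upper limit. Other scalings, filters, DESeq2 1.42.0, limma-voom (limma 3.58.1) and fits without 1 library were the alternatives, and the fit was tested on simulated data. Named genes were the members, the hairpin targets, genes of the other pathway lists past an adjusted p of 0.05 (none), Socs44A, Socs16D, ken, Stam, zfh1, chinmo, Diap1 (th), slbo, and overlapping or neighbouring genes. The genes apt, fj, wg, Tep4, lama, asrij, lwr, smt3, roX1, the other sex and dosage genes and the cell type markers named were picked after their values were seen. The members and lists were chosen with earlier results of these data known.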

Additional observations from a re-analysis of the deposited data

How the results depend on the processing

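The count of 0 JAK-STAT genes called held under the other 3 scalings, both other filters, DESeq2, limma-voom and an adjusted p under 0.05. So did the 0 of the other pathway components. Over all genes these alternatives called from 32 of 10360 genes (upper quartile scaling) to 267 of 10360 (adjusted p under 0.05). With so few genes called, 0 is the likely count for lists this short, so it says little of these genes. In the fits without 1 library a group has a lone sample, which is assumed to vary like the others. Over all genes, each of these fits also called more genes than the fit of all libraries. The count of 0 reported targets called did not hold in all of them. The targets that then passed were wg (without control replicate 3), fj (without Antp RNAi replicate 1), and apt and zfh1 (without Antp RNAi replicate 2). The cause was not tested. Of 80 log2 fold changes of single members under alternatives, 79 kept their direction. That of Socs36E turned to -0.023 without Antp RNAi replicate 1, against 0.39 without replicate 2. In the same fits hop stood at 0.10 and 0.25, and ken of the other components at 0.17 and 0.45. No paired analysis was possible because replicate number 2 is the only one that both groups have. Depth limits upd1 and upd3, which had at most 10 counts in a library, and the value of upd2 varied between 0.04 and 1.97 on the log2 scale with the library left out.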

Other observations

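The 2 Antp RNAi libraries differed from each other in several genes of the pathway. Among 5621 genes with a mean of at least 20 CPM, replicate 1 exceeded replicate 2 by 1.51 times in Tep4, a thioester protein gene and reported target, with 31.7 against 20.9 CPM. The ratio was 1.32 for Socs36E, 1.31 for zfh1, 1.25 for Socs16D and 1.20 for ken. A ratio as high as that of Socs36E was reached by 3.91% of these genes, and one as high as that of ken by 11.5%. It was 1.01 for Stat92E and 1.06 for dome. Replicate 1 was also higher in fj (1.32), whose mean was lower in Antp RNAi, and lower in several others, among them asrij (0.775), lama (0.828), smt3 (0.835) and lwr (0.881). Of the 5621 genes, 90.1%, 81.7%, 80.7% and 71.3% reached these ratios or higher ones, in the same order. A ratio as low as that of lwr was thus common.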
